A study of Mus musculus with 24 samples.

Results

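The mRNA of 7 CXC chemokines was followed in mouse macrophages labelled wild type or *Olfml3* knockout, with and without lipopolysaccharide (LPS), an outer-membrane component of Gram-negative bacteria. The genes were *Cxcl1*, *Cxcl2*, *Cxcl3*, *Cxcl9*, *Cxcl10*, *Cxcl11* and *Cxcl16*, taken by symbol from the 56691 genes of each expression table. They were chosen for what their products attract, and the main contrast set *Cxcl1*, *Cxcl2* and *Cxcl3* against *Cxcl9*, *Cxcl10* and *Cxcl11*. RNA-seq came from 24 libraries in 8 groups of 3. In RAW264.7, a macrophage-like line grown from a mouse tumour, the groups were wild type given PBS, wild type given LPS, and cells labelled *Olfml3* knockout given either. The RAW264.7 knockout was made with a lentiviral CRISPR-Cas9 guide followed by single-cell cloning, and which clone was sequenced is not given in the sources used here. In bone marrow-derived macrophages (BMDMs), the same 4 groups came from wild-type and whole-body *Olfml3*-/- C57BL/6 male mice of 8 weeks, whose marrow was cultured for 6 days in medium conditioned by L929 cells. The LPS dose was 100 ng/mL, and cells were taken after 4 h. The study calls its sequencing replicates biological, and how many mice or cultures stand behind the 3 libraries of a group is not given in the sources used here. All p-values measure the spread between these libraries.

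CXC chemokines are small secreted proteins that guide leukocytes through receptors of the CXCR family. *Cxcl1*, *Cxcl2* and *Cxcl3* encode ligands of CXCR2, the receptor that brings neutrophils to infected tissue, and macrophages transcribe them within hours of Toll-like receptor signalling through NF-κB. *Cxcl9*, *Cxcl10* and *Cxcl11* encode ligands of CXCR3, carried by activated T cells and NK cells, and their transcription depends on interferons and IRF factors. *Cxcl16* encodes a membrane-bound chemokine that the proteases ADAM10 and ADAM17 can shed and that binds CXCR6.

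*Olfml3* itself was looked at first, as the gene that the genotype labels name. In BMDMs its level was 0.53 to 0.65 FPKM (fragments per kilobase of exon, scaled to the library's total) in wild type with PBS and 0.01 to 0.03 in the knockout, and with LPS 0.24 to 0.25 against 0 to 0.01. In RAW264.7 it was higher, not lower, in the libraries labelled knockout. It was 0.15 to 0.19 FPKM in wild type with PBS but 0.65 to 1.19 in the libraries labelled knockout, and with LPS 0.13 to 0.29 against 18.3 to 18.9. The paper characterized its RAW264.7 clones by sequencing the mutations of each allele. An mRNA level cannot show whether an allele is mutated, so these values do not settle the genotype. Whether the RAW264.7 groups were exchanged in the labels was not tested, and 12 of 24 genotype tags contradict the titles. The RAW264.7 libraries are therefore named by their label below. Libraries held 11638273 to 16478616 counts in RAW264.7 and 17121240 to 22873094 in BMDMs. Of 7 macrophage markers, all 7 were above 0.1 FPKM in BMDMs and 6 in RAW264.7, where *Mertk* was at 0. Their summed FPKM was 2729 to 2945 in wild-type RAW264.7 and 829 to 1286 in the libraries labelled knockout, and 4 dendritic cell markers summed to 0.68 to 1.36 FPKM against 2.75 to 10.1. In BMDMs with LPS, 3 endothelial markers summed to 5.09 to 6.03 FPKM in wild type and 3.81 to 4.26 in knockout. Single genes had a large part in these sums. Over the RAW264.7 libraries *Lyz2* ranged from 259 to 2264 FPKM. *Siglech* ranged there from 0.18 to 9.72, beside at most 0.92 for any other dendritic cell marker. Over the BMDM libraries *Kdr* ranged from 0.52 to 5.34, beside at most 0.45 for any other endothelial marker. The part of these marker differences in the chemokine results was not tested. The 8 neutrophil markers summed to at most 0.81 FPKM in RAW264.7 and to 4.87 to 8.20 in BMDMs, where *S100a8* lay at 2.25 to 3.72 and *S100a9* at 1.58 to 4.18, and *Ly6g* was at 0 in every library of both. The 5 T cell markers summed to at most 0.07 FPKM. In bulk RNA, fewer expressing cells and less mRNA per cell cannot be told apart.

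Of the 7 genes, 6 lie on chromosome 5 (GRCm38, GENCODE M21). *Cxcl3* (90786103 to 90789600), *Cxcl1* (90891241 to 90893115) and *Cxcl2* (90903871 to 90905938) are on the plus strand, and *Cxcl9* (92321347 to 92328079), *Cxcl10* (92346638 to 92348889) and *Cxcl11* (92359544 to 92365485) on the minus strand. *Cxcl16* lies apart, on chromosome 11 (70453983 to 70459984, minus strand). *Cxcl11* is annotated as a polymorphic pseudogene in this C57BL/6J assembly, so its reads are transcripts that need not give a protein there. RefSeq promoter sequence was held for 5 of the 7 members. The 250 bases before the start of each are shown 5′ to 3′ because they hold the sequence patterns that the 2 sets share or lack. Capitals mark matches on either strand to a κB pattern (GGGNNNTTC) or to the core of an interferon-stimulated response element, ISRE (GAAANNGAA).
Cxcl1 (chr5:90890995-90891244, plus strand): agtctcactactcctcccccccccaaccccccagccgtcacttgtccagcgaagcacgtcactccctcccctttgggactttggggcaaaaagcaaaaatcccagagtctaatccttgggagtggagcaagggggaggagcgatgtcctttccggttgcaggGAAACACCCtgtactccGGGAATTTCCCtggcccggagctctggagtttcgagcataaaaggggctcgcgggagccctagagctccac
Cxcl2 (chr5:90903649-90903898, plus strand): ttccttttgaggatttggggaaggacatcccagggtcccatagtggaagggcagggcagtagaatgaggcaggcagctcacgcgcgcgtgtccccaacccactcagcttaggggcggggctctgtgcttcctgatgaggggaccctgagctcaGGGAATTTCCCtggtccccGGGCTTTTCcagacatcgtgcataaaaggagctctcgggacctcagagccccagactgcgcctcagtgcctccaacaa
Cxcl3 (chr5:90785851-90786100, plus strand): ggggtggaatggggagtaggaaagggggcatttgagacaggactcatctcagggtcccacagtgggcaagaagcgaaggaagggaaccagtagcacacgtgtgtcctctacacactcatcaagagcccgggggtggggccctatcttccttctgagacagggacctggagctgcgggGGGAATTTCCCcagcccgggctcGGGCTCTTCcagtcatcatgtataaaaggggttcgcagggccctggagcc
Cxcl9 (chr5:92328080-92328329, minus strand): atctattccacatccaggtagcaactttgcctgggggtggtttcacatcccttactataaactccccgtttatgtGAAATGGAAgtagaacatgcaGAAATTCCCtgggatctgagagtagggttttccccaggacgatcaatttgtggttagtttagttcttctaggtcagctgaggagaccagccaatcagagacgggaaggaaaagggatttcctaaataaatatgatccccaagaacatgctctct
Cxcl10 (chr5:92348890-92349139, minus strand): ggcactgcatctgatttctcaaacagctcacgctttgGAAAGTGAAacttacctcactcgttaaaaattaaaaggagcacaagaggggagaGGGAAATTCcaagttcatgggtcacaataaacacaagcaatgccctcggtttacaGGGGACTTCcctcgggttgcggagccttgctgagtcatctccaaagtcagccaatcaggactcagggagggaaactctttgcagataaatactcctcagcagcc

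The κB pattern was found in all 5 windows and in 11.8% of the 32851 RefSeq windows of this length. *Cxcl1*, *Cxcl2*, *Cxcl3* and *Cxcl10* each held it at 2 separate places, and *Cxcl9* at 1. In *Cxcl1*, *Cxcl2* and *Cxcl3* one of these places has the same letters, matches on both strands and begins 71, 97 and 73 bases before the start, in that order. The ISRE core was found in *Cxcl9*, 175 bases before the start, and in *Cxcl10*, 213 bases before it, against 7.13% of all windows. None of *Cxcl1*, *Cxcl2* and *Cxcl3* held an ISRE core here. The pattern TTCNNNGAA, the shape of a gamma-activated sequence, was in 7.02% of windows and in none of the 5. These are matches of letters and not measured binding sites.

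FPKM divides by the length of all annotated exons of a gene, which is 3498 bases for *Cxcl3* although its protein-coding transcript has 1016. That is 3.44 times the transcript. The same quotient is 1.97 for *Cxcl1*, 1.11 for *Cxcl2* over its longest coding transcript, 1.04 for *Cxcl9*, 1.66 for *Cxcl10* over its longest, 2.4 for *Cxcl11* and 1.12 for *Cxcl16*. Levels of different genes are therefore compared with that reserve, while the comparison of one gene between groups is not touched by it. *Cxcl10* shares 133 exonic bases with *Art3*, *Cxcl16* shares 552 with *Zmynd15* and *Cxcl11* shares 1582 with the pseudogene *Gm2673*, in each case on the opposite strand. Whether counting used strand is not stated, so reads of each pair cannot be told apart there, although *Art3* reached at most 0.29 FPKM, *Zmynd15* at most 8.11 and *Gm2673* was listed at 0 in every library. *Cxcl2* and *Cxcl3* share 126 stretches of 50 bases among their transcripts, and the split of such reads is uncertain.

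**Figure D1:**
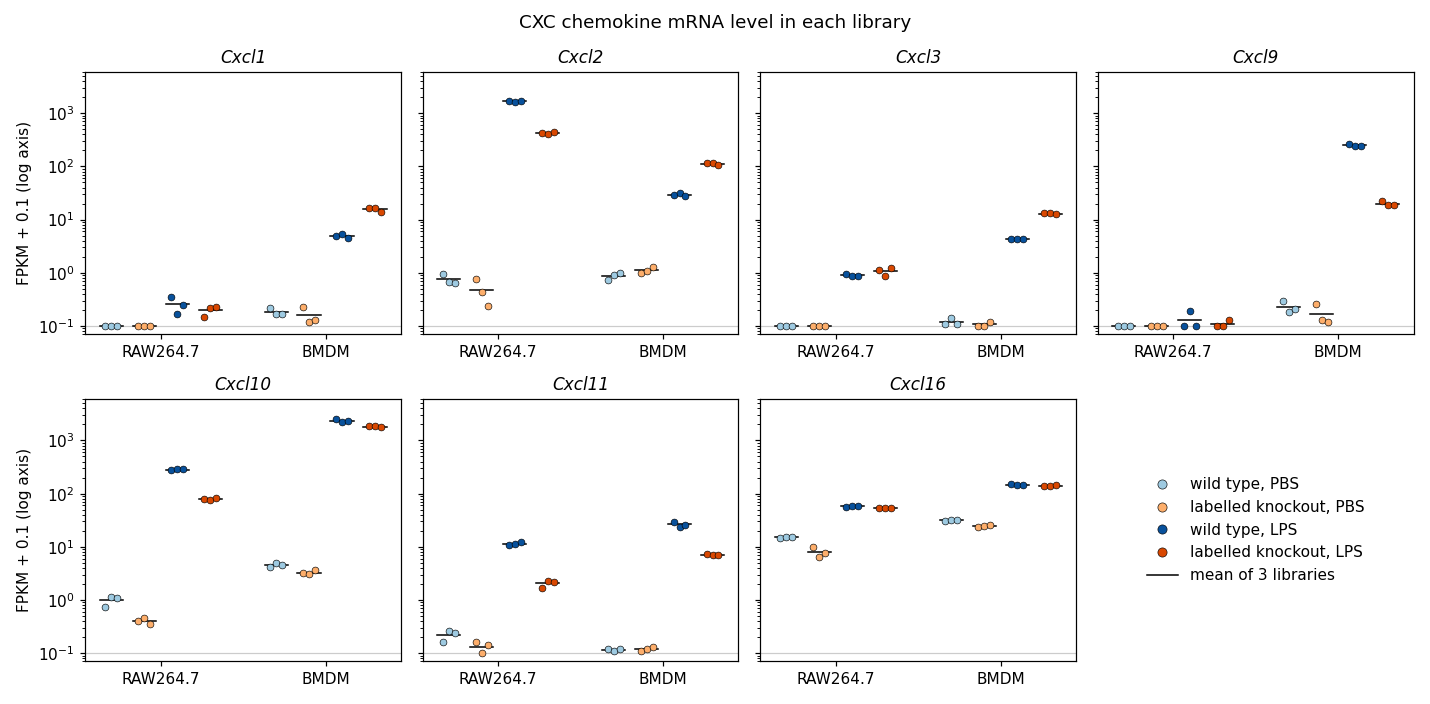
Level of each gene in each of the 24 libraries, as FPKM + 0.1 on a log axis, by cell type and group. Points are libraries, bars are means of 3, and the grey line marks 0 FPKM. *Cxcl2* dominated LPS-treated RAW264.7 and *Cxcl10* LPS-treated BMDMs, and *Cxcl9* stayed at or near 0 in RAW264.7.

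The first comparison asked how far each gene responded to LPS in wild-type cells. A gene was called when limma on log2(FPKM + 0.1) gave an adjusted p (Benjamini-Hochberg, over all genes tested) below 0.05 together with a change of 1.5-fold or more. In wild-type RAW264.7, 6 of the 7 genes rose, where 5.8% of 26740 genes were called higher and 12.5% lower. In wild-type BMDMs all 7 rose, where 7.94% of 26973 genes were called higher and 32.5% lower. The median log2 change of the 7 was 3.16 in RAW264.7, or 3.70 with *Cxcl3* at its bound given below, and 5.16 in BMDMs. Medians over all genes were -0.05 and -0.30.

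*Cxcl2* was the leading member in RAW264.7. Its FPKM in wild type was 0.83, 0.57 and 0.55 with PBS and 1705, 1627 and 1680 with LPS. The log2 change was 11.14 (SE 0.34, adjusted p = 1.54e-08), and its mean with LPS held rank 18 among all genes. The other ligands of CXCR2 stayed low in this line. *Cxcl3* went from 0 counts in every PBS library to 0.85, 0.76 and 0.77 FPKM in wild type, 38 or 39 counts each, which is at least 13.03-fold above a floor of 3 counts per library. *Cxcl1* went from 0 counts to 6, 2 and 4 counts. It was called (log2 change 1.30, SE 0.24, adjusted p = 0.00277), but on counts this small the call was lost with a pseudocount of 1.

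Among the ligands of CXCR3, *Cxcl10* had the highest level in RAW264.7. In wild type it went from 0.63, 1.02 and 1.01 FPKM to 277, 285 and 288 (log2 change 8.19, SE 0.16, adjusted p = 1.08e-09). *Cxcl11* went from 0.06, 0.16 and 0.14 to 10.5, 11.2 and 12.1 (log2 change 5.72, SE 0.22, adjusted p = 7.74e-08). *Cxcl9* was the one member without a call, with 0 counts in all 6 PBS libraries and in 4 of the 6 LPS libraries, and 4 and 1 counts in the others. At this depth the chosen floor of 3 counts per library was worth about 0.06 to 0.08 FPKM of *Cxcl9*, and a lower level rests on fewer counts. *Cxcl16*, which is expressed without stimulation, went from 14.7, 15.3 and 15.5 to 56.0, 58.9 and 59.0 FPKM (log2 change 1.93, SE 0.13, adjusted p = 2.93e-06).

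In BMDMs *Cxcl10* held the highest level of the 7. It went from 4.09, 4.91 and 4.39 FPKM in wild type with PBS to 2519, 2271 and 2279.8 with LPS (log2 change 9.01, SE 0.09, adjusted p = 4.99e-12), the level of rank 17 among all genes. *Cxcl9* went from 0.19, 0.08 and 0.11 to 265.0, 239 and 245 FPKM, a log2 change of 10.13 (SE 0.28, adjusted p = 9.01e-10). The order of *Cxcl9* and *Cxcl10* by log2 change turned with a pseudocount of 1, which gave 7.80 and 8.75. *Cxcl11* went from 0.02, 0.01 and 0.02 to 29.2, 23.9 and 26.0 (log2 change 7.82, SE 0.09). The PBS libraries held only 1 or 2 counts of *Cxcl11*, so the size of its fold is not fixed by these data.

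The 3 neutrophil-attracting genes rose by 4.72 to 5.16 on the log2 scale in wild-type BMDMs. *Cxcl2* went from 0.63, 0.82 and 0.90 to 29.0, 31.2 and 27.3 FPKM (log2 change 5.06, SE 0.13, adjusted p = 4.99e-10). *Cxcl1* went from 0.12, 0.07 and 0.07 to 4.84, 5.19 and 4.36, and *Cxcl3* from 0.01, 0.04 and 0.01 to 4.19, 4.21 and 4.13. With 3 to 5 counts of *Cxcl1* and 1 to 3 of *Cxcl3* per PBS library, the size of these 2 rises followed the pseudocount. It was 5.67 and 7.27 with a pseudocount of 0.01, and 2.41 and 2.34 with a pseudocount of 1. *Cxcl16* rose from 31.0, 31.2 and 31.5 to 152, 143 and 147 (log2 change 2.24, SE 0.05). No library with PBS overlapped one with LPS for any of the 7 genes in wild-type BMDMs. The share of all genes without such overlap was not taken.

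The response was also present in the cells labelled knockout. In RAW264.7, 6 of the 7 genes rose with LPS (7.45% of all genes were called higher and 14.6% lower), and in BMDMs all 7 did (8.02% higher and 30.9% lower). *Cxcl9* was again the exception in RAW264.7. *Cxcl3* reached 1.03, 0.78 and 1.12 FPKM from 0 in RAW264.7 labelled knockout, at least 17.7-fold above the floor.

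The second comparison asked whether genotype altered the levels without stimulation. In RAW264.7 with PBS, 2 of the 7 genes were lower in the libraries labelled knockout, where 3.77% of all genes were called lower and 4.79% higher. *Cxcl10* was at 0.30, 0.36 and 0.25 FPKM against 0.63, 1.02 and 1.01 in wild type (log2 change -1.27, SE 0.16, adjusted p = 0.00105). *Cxcl16* was at 9.66, 6.34 and 7.54 FPKM against 14.7, 15.3 and 15.5 (log2 change -0.96, SE 0.13, adjusted p = 0.00134). In neither gene did the groups overlap. *Cxcl2* lay at 0.67, 0.33 and 0.14 against 0.83, 0.57 and 0.55, with overlap, and was not called (adjusted p = 0.157). Library 1 of the PBS group labelled knockout stood apart, with an FPKM sum over all genes of 356156 against 296109 and 295256 in the other 2 and 357349 to 361580 in wild type with PBS. Without it 4 members were called lower, *Cxcl2* and *Cxcl11* being added. The same 4 were called by DESeq2 on the counts.

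In BMDMs with PBS 0 of the 7 genes were called by limma, edgeR or DESeq2, where 0.901% of all genes were called higher and 0.916% lower. By limma 3 members had an unadjusted p below 0.05, and 2 kept an adjusted p below it with a fold under 1.5. On the adjusted p alone 1116 of 26973 genes passed, and the share with such an unadjusted p was not taken. *Cxcl10* was at 3.06, 2.95 and 3.55 FPKM in knockout against 4.09, 4.91 and 4.39 (log2 change -0.47, SE 0.09, adjusted p = 0.0144). *Cxcl16* was at 23.8, 24.9 and 25.3 against 31.0, 31.2 and 31.5 (log2 change -0.34, SE 0.05, adjusted p = 0.00242). Groups did not overlap in either gene. The other 5 members were at or below 1.17 FPKM in every BMDM library with PBS, and their groups overlapped.

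**Figure D2:**
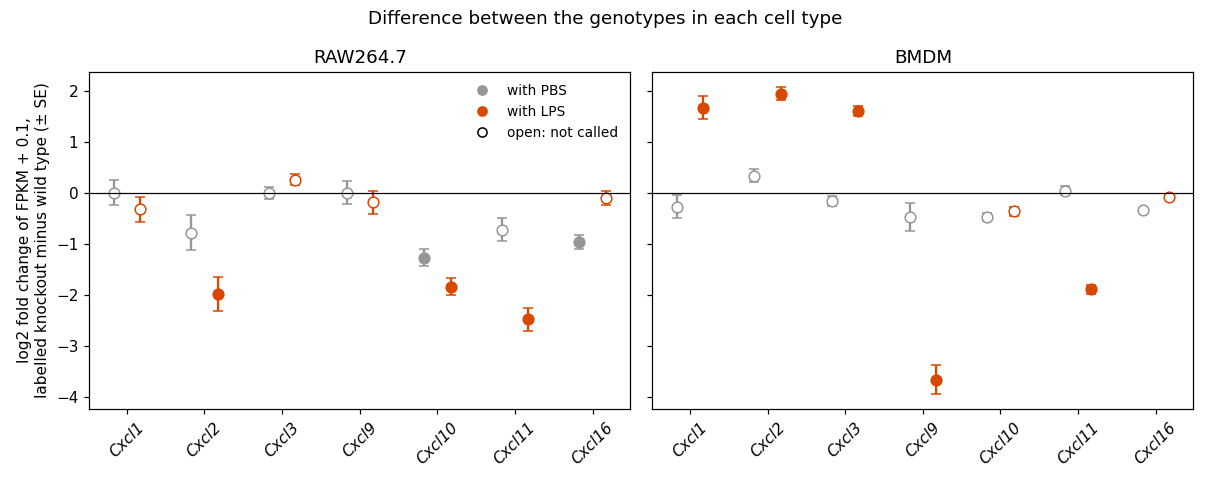
Log2 fold change of FPKM + 0.1 between genotypes (labelled knockout minus wild type) for each gene, with PBS in grey and LPS in orange. Error bars are the limma SE from 12 libraries per cell type, and filled points passed both thresholds. With LPS the points of *Cxcl2* lie on opposite sides of 0 in the 2 cell types, at -1.98 and 1.94.

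The third comparison set the genotypes side by side under LPS. In RAW264.7, 3 of the 7 genes were lower in the libraries labelled knockout and none higher, where 7.6% of all genes were called lower and 9.73% higher. *Cxcl2* was at 425.5, 408 and 437 FPKM against 1705, 1627 and 1680 in wild type (log2 change -1.98, SE 0.34, adjusted p = 0.0035). *Cxcl10* was at 79.2, 77.5 and 81.8 against 277, 285 and 288 (log2 change -1.83, SE 0.16, adjusted p = 7.59e-05). *Cxcl11* was at 1.59, 2.22 and 2.09 against 10.5, 11.2 and 12.1 (log2 change -2.47, SE 0.22, adjusted p = 8.29e-05). All 3 libraries labelled knockout lay below all 3 wild-type libraries in each of these genes, so members of both sets were lower together. The count of 3 held under every alternative tried.

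The remaining members did not pass in RAW264.7 with LPS. *Cxcl16* was at 54.0, 53.7 and 54.4 FPKM against 56.0, 58.9 and 59.0 (log2 change -0.10, SE 0.13, adjusted p = 0.655), and the sign turned with TPM scaling. *Cxcl3* was at 1.03, 0.78 and 1.12 against 0.85, 0.76 and 0.77 (log2 change 0.26, SE 0.11, adjusted p = 0.136). *Cxcl1* and *Cxcl9* had at most 6 counts in any library.

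In BMDMs with LPS, 5 of the 7 genes were called, 3 higher and 2 lower in knockout, where 3.23% of all genes were called higher and 1.53% lower. All 3 ligands of CXCR2 rose. *Cxcl1* was at 16.2, 16.2 and 14.0 FPKM against 4.84, 5.19 and 4.36 in wild type (log2 change 1.67, SE 0.22, adjusted p = 0.000815). *Cxcl2* was at 114, 114 and 108 against 29.0, 31.2 and 27.3 (log2 change 1.94, SE 0.13, adjusted p = 1.99e-05). *Cxcl3* was at 12.95, 12.93 and 12.77 against 4.19, 4.21 and 4.13 (log2 change 1.60, SE 0.10, adjusted p = 1.79e-05). The means were 3.22, 3.84 and 3.09 times those of wild type, with no overlap between genotypes.

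Of the CXCR3 ligands, *Cxcl9* and *Cxcl11* fell in the same knockout libraries. *Cxcl9* was at 22.3, 18.3 and 18.7 FPKM against 265.0, 239 and 245 (log2 change -3.65, SE 0.28, adjusted p = 4.18e-05), a 12.6-fold lower mean. *Cxcl11* was at 7.38, 6.83 and 6.96 against 29.2, 23.9 and 26.0 (log2 change -1.88, SE 0.09, adjusted p = 5.9e-06), a 3.74-fold lower mean. *Cxcl10*, the most abundant of the 3, was at 1864, 1834 and 1799 against 2519, 2271 and 2279.8. Its groups did not overlap and its adjusted p was 0.0175, but its log2 change of -0.36 (SE 0.09) stayed under the fold threshold. *Cxcl16* was at 138, 137 and 143 against 152, 143 and 147, and was not called (log2 change -0.08, SE 0.05, adjusted p = 0.291). The 5 calls held under every alternative tried, including edgeR and DESeq2 on the counts.

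*Cxcl2* thus stood on opposite sides in the 2 cell types under LPS, 3.94-fold lower in RAW264.7 labelled knockout and 3.84-fold higher in knockout BMDMs. Every library showed its cell type's direction. The 2 cell types are in tables normalized separately, and the difference between them was not tested. *Cxcl11* was lower in the libraries labelled knockout of both. By label, *Olfml3* mRNA also went opposite ways with LPS. Its mean was 18.7 FPKM against 0.183 in wild type in RAW264.7, and 0.00333 against 0.247 in BMDMs. With LPS, *Cxcl2* was therefore higher in the libraries with less *Olfml3* mRNA in both cell types, while *Cxcl11* was not. A link between these levels was not tested.

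The interaction term asked whether the difference between genotypes itself changed with LPS. In BMDMs it was called for 5 of the 7 genes, 3 higher and 2 lower, where 1.91% of all genes were called higher and 1.02% lower. It was positive for *Cxcl1* (1.94, SE 0.32, adjusted p = 0.00688), *Cxcl2* (1.60, SE 0.18, adjusted p = 0.000921) and *Cxcl3* (1.77, SE 0.14, adjusted p = 0.000183). It was negative for *Cxcl9* (-3.18, SE 0.39, adjusted p = 0.00165) and *Cxcl11* (-1.92, SE 0.12, adjusted p = 4.98e-05), and for *Cxcl10* it was 0.11 (SE 0.12, adjusted p = 0.652). *Cxcl2* alone kept its call under every alternative. The PBS libraries of the other 4 held 0 to 13 counts. With a pseudocount of 0.01 the adjusted p was 0.095 for *Cxcl1*, 0.0687 for *Cxcl3* and 0.142 for *Cxcl9*, and for *Cxcl11* it was 0.175 with edgeR and 0.0954 with DESeq2.

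In RAW264.7 the interaction was called for 2 members, where 0.905% of all genes were called higher and 1.04% lower. *Cxcl16* had 0.86 (SE 0.18, adjusted p = 0.0473), its genotypes being apart with PBS and close with LPS. *Cxcl11* had -1.75 (SE 0.32, adjusted p = 0.0224). Neither call is firm. *Cxcl16* lost its call with any of 10 single libraries left out, but kept it on the counts with edgeR and DESeq2. *Cxcl11* lost its call with any of 4 and on the counts (adjusted p = 0.81 with edgeR and 0.845 with DESeq2). *Cxcl2*, at -1.20 (SE 0.48, adjusted p = 0.403) here, was called by DESeq2 (adjusted p = 0.00362).

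To set the 2 kinds of chemokine against each other within a library, the mean log2(FPKM + 0.1) of *Cxcl9*, *Cxcl10* and *Cxcl11* was subtracted from that of *Cxcl1*, *Cxcl2* and *Cxcl3*. No test was run on this index, since it sums over chosen genes. In BMDMs with PBS it was -1.02, -0.73 and -0.87 in wild type and -0.67, -0.62 and -0.51 in knockout. With LPS it was -4.98, -4.72 and -4.93 in wild type and -1.23, -1.09 and -1.20 in knockout. LPS thus shifted the index by -4.01 in wild-type BMDMs and by -0.58 in knockout BMDMs, and the genotypes differed by 3.70 with LPS (pooled SD 0.11). The index was higher in knockout in every library pair, but interferon-type mRNA still exceeded the other set in all BMDM libraries.

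In RAW264.7 the index lay between -0.71 and 0.81. *Cxcl1*, *Cxcl3* and *Cxcl9* had 0 counts in every PBS library there and entered at the pseudocount alone. With LPS, *Cxcl1* and *Cxcl9* had at most 6 counts, so a value near 0 does not mean a balance of the 2 sets. The index was -0.11, -0.71 and -0.68 in wild type with PBS and 0.09, -0.03 and -0.34 in the libraries labelled knockout. With LPS it was 0.31, -0.45 and 0.02 in wild type and 0.81, 0.71 and 0.80 in those labelled knockout, a difference of 0.81 (pooled SD 0.28). Its sign depended on which members entered. It was -0.15 for *Cxcl2* against *Cxcl10* alone and -0.14 without *Cxcl3* and *Cxcl11*. The ratio of their FPKM was 6.15, 5.71 and 5.84 in wild type with LPS and 5.38, 5.27 and 5.35 in the libraries labelled knockout, so both mRNAs were lower to a similar extent. In BMDMs with LPS the same ratio was 0.0115, 0.0138 and 0.0120 in wild type against 0.0609, 0.0623 and 0.0602 in knockout.

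**Figure D3:**
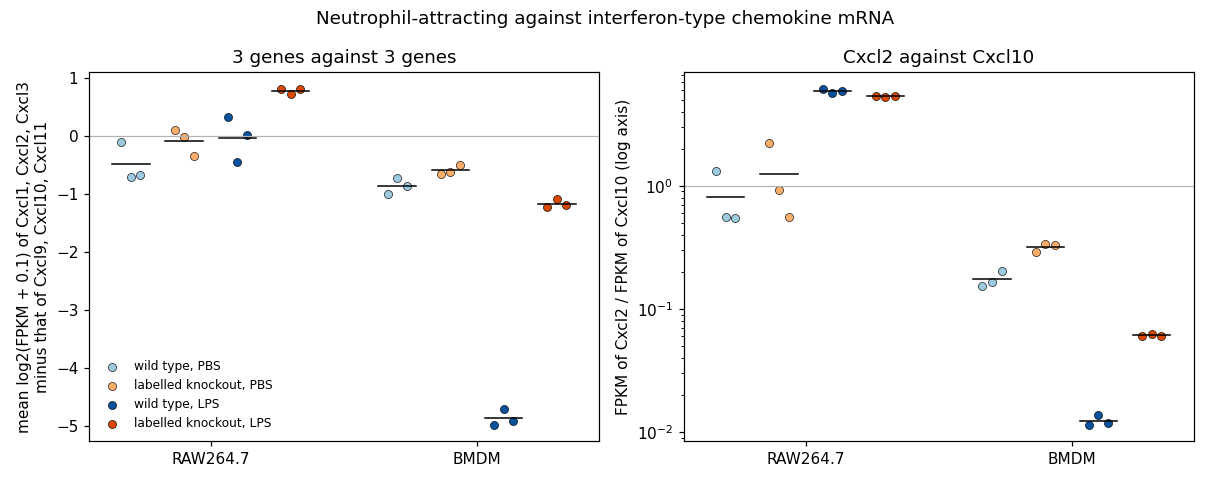
Balance of the 2 sets in each library. Left, mean log2(FPKM + 0.1) of the 3 neutrophil-attracting genes minus that of the 3 interferon-type genes; right, FPKM of *Cxcl2* divided by that of *Cxcl10* on a log axis. Points are libraries and bars are means of 3. LPS-treated wild-type BMDMs lie lowest in both panels, near -4.9 and 0.012.

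The make-up of the 7 mRNAs followed the same lines. With PBS, *Cxcl16* held 89.7% to 90.6% of their summed FPKM in wild-type RAW264.7 and 84.0% to 86.0% in wild-type BMDMs. With LPS, *Cxcl2* held 82.0% to 83.2% in wild-type RAW264.7 and 75.2% to 75.8% in those labelled knockout, where the sum was 542 to 577 FPKM against 1983 to 2049.7. In BMDMs with LPS, *Cxcl10* held 83.4% to 83.9% in wild type and 85.6% to 85.7% in knockout. *Cxcl9* went from 8.81% to 8.95% in wild type down to 0.857% to 1.03% in knockout, and *Cxcl2* from 0.966% to 1.15% up to 5.15% to 5.34%.

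**Figure D4:**
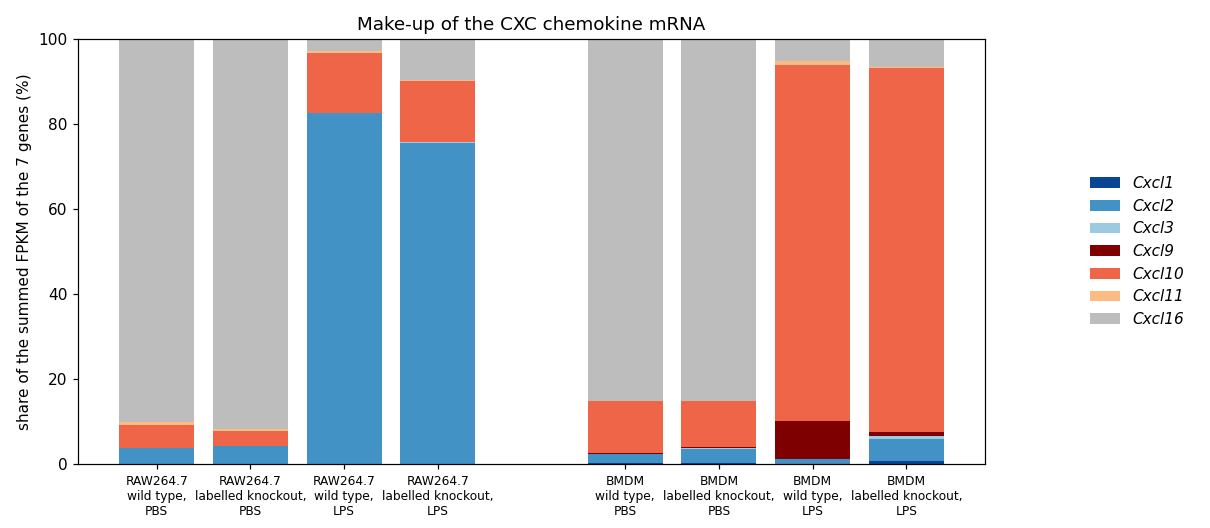
Share of each gene in the summed FPKM of the 7 genes, in percent, as the mean of 3 libraries per group. *Cxcl16* fills most of each bar with PBS, *Cxcl2* with LPS in RAW264.7 and *Cxcl10* with LPS in BMDMs.

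Ordered by mean level within a cell type, the groups fell into few separate steps. In BMDMs knockout with LPS came first and wild type with LPS second for *Cxcl1*, *Cxcl2* and *Cxcl3*, and the reverse held for the other 4 members, each step without overlap. The 2 PBS groups followed, overlapping for *Cxcl1*, *Cxcl2*, *Cxcl3*, *Cxcl9* and *Cxcl11* and apart for *Cxcl10* and *Cxcl16*. In RAW264.7 wild type with LPS came first for every member but *Cxcl3*. The LPS groups overlapped there for *Cxcl1*, *Cxcl3* and *Cxcl9*, and the PBS groups for all but *Cxcl10* and *Cxcl16*.

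Other genes of the pathway were taken from 5 lists. Of 8 other CXC ligands, 6 were measured in RAW264.7 and 5 in BMDMs. In RAW264.7 limma called 0 of the 6 between genotypes with PBS or LPS, and 0 of them had an unadjusted p below 0.05 in either. Of all genes, 4.79% were called higher and 3.77% lower with PBS, and 9.73% and 7.6% with LPS. At these shares 0 of 6 called does not set the list apart. In BMDMs *Cxcl14*, a chemokine of epithelia and myeloid cells, was higher in knockout, at 9.13 against 5.69 FPKM with PBS and 4.66 against 3.04 with LPS. *Cxcl5*, a further ligand of CXCR2, rose with LPS in knockout BMDMs from 0 to a mean of 0.133 FPKM, close to the pseudocount of 0.1. In wild type its mean was 0 with PBS and 0.0567 with LPS, where it was not called (adjusted p = 0.0669), nor was the interaction (0.54, SE 0.35, adjusted p = 0.516).

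Of the 8 receptors, 6 were measured in BMDMs and 5 in RAW264.7. *Cxcr2* stayed at a group mean of 0.0933 FPKM or less everywhere. *Cxcr3* fell with LPS in wild-type BMDMs from 4.39 to 1.32 FPKM (log2 change -1.68, SE 0.18) and in wild-type RAW264.7 from 4.03 to 1.09. With LPS it was lower in RAW264.7 labelled knockout, at 0.41 against 1.09 FPKM (log2 change -1.32, SE 0.36, adjusted p = 0.025), and *Cxcr6*, the receptor of CXCL16, was higher, at 0.333 against 0.0267 (log2 change 1.78, SE 0.37). These levels of *Cxcr6* lie near the pseudocount of 0.1, so the size of its change is not fixed by these data. *Cxcr4*, the receptor of CXCL12, fell with LPS in wild-type BMDMs from 67.9 to 1.15 FPKM and was at 2.00 in knockout with LPS (log2 change between genotypes 0.79, SE 0.19, adjusted p = 0.0155). *Cxcr5* was lower in knockout BMDMs with LPS, at 0.0267 against 0.123 FPKM (log2 change -0.82, SE 0.17, adjusted p = 0.00821). With LPS in wild-type BMDMs, 2 of 6 were called higher and 3 lower, where 7.94% of all genes were called higher and 32.5% lower. The 2 were *Cxcr5* and *Cxcr6*, at means of 0.123 and 0.17 FPKM with LPS, close to the pseudocount.

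The list of interferon signalling, which acts upstream of *Cxcl9*, *Cxcl10* and *Cxcl11*, is described here for 14 measured genes. With PBS, 3 were lower in knockout BMDMs and none higher, where 0.916% of all genes were called lower and 0.901% higher. By limma 7 of 14 had an unadjusted p below 0.05. The list median was -0.12 beside 0.01 over all genes. *Irf7*, which amplifies type I interferon transcription, was at 2.05 against 23.5 FPKM (log2 change -3.45, SE 0.09). *Stat2*, a subunit of the factor that carries type I interferon signals to the nucleus, was at 8.72 against 21.6 (log2 change -1.30, SE 0.06). *Irf9*, another subunit of it, was at 6.62 against 12.5 (log2 change -0.91, SE 0.05). With LPS, 2 were lower and none higher in knockout BMDMs, where 1.53% of all genes were called lower and 3.23% higher. *Irf8* was at 40.1 against 170.8 FPKM (log2 change -2.09, SE 0.06, adjusted p = 2.26e-07). *Ifnb1*, the gene of interferon-β, was at 2.53 against 6.21 (log2 change -1.25, SE 0.25, adjusted p = 0.00652). The other 12 were not called with LPS, *Stat2* and *Irf7* among them. By limma 9 of 14 had an unadjusted p below 0.05 with LPS. For neither condition was the share of all genes with such an unadjusted p taken. The list median there was 0.021, beside 0.04 over all genes. The interaction was called higher for *Irf7* (2.90, SE 0.13), *Stat2* (1.52, SE 0.08) and *Irf9* (0.86, SE 0.08), and lower for *Irf8* (-1.83, SE 0.08). Its share over all genes was 1.91% higher and 1.02% lower. With LPS 9 of the 14 rose in wild-type BMDMs and 2 fell, where 7.94% of all genes were called higher and 32.5% lower.

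In RAW264.7 the same list held 2 lower and 1 higher gene of 14 in each condition, where 3.77% of all genes were called lower and 4.79% higher with PBS and 7.6% lower and 9.73% higher with LPS. The list median was 0.087 with PBS and -0.085 with LPS, beside 0.022 and 0 over all genes. With PBS *Irf7* was at 0.45 against 5.07 FPKM (log2 change -3.23, SE 0.08) and *Irf9* at 2.51 against 4.19, and with LPS *Irf7* was at 49.2 against 86.6 (log2 change -0.81, SE 0.08) and *Irf1* at 14.7 against 25.2 (log2 change -0.77, SE 0.09). *Tyk2*, a kinase of interferon receptors, was higher in both, at 12.6 against 7.15 and 21.1 against 13.4. *Ifnb1* was not called between genotypes in RAW264.7 with LPS, at 22.3 against 18.6 FPKM.

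The list of TLR4 and NF-κB genes, which take part in the signalling from LPS, held 16 measured genes. In BMDMs 1 of 16 was called between genotypes with LPS, where 3.23% of all genes were called higher and 1.53% lower. It was *Ticam2*, an adaptor of TLR4, at 6.42 against 4.13 FPKM (log2 change 0.63, SE 0.05). By limma 11 of 16 had an unadjusted p below 0.05 with LPS. With PBS limma called 0 of 16, where 0.901% of all genes were called higher and 0.916% lower, and 8 of 16 had an unadjusted p below 0.05. The share of all genes with such an unadjusted p was not taken. The list median was 0.03 with LPS, beside 0.04 over all genes. In RAW264.7 with LPS, 4 were higher and 1 lower, where 9.73% of all genes were called higher and 7.6% lower. The list median was 0.11 beside 0 over all genes. *Cd14*, the co-receptor that hands LPS to TLR4, was at 399 against 1135 FPKM (log2 change -1.51, SE 0.13), and with PBS at 107 against 445 (log2 change -2.07, SE 0.13). *Rel*, an NF-κB subunit, was higher with LPS at 81.6 against 29.3 (log2 change 1.47, SE 0.21), *Ticam2* at 5.24 against 2.27 and *Nfkbiz*, an inducible NF-κB cofactor, at 130.7 against 59.9. With PBS 1 was higher, *Rel*, and 2 lower, *Cd14* and the kinase gene *Ikbke*. Of all genes, 4.79% were called higher there and 3.77% lower.

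Another 5 genes act on the chemokines after transcription. *Zfp36* and *Zc3h12a*, whose products destabilize chemokine mRNA, rose with LPS in wild-type BMDMs from 35.4 to 130.2 and from 5.65 to 36.3 FPKM and were not called between genotypes in either cell type. With LPS both had an adjusted p below 0.05 at less than 1.5-fold, *Zfp36* with a log2 change of 0.31 in BMDMs and -0.47 in RAW264.7. *Adam17* was higher with LPS in RAW264.7 labelled knockout, at 54.8 against 34.3 FPKM (log2 change 0.67, SE 0.17, adjusted p = 0.0171), and was not called in BMDMs.

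The genes most like each member were sought by the Pearson correlation of log2(FPKM + 0.1), centred within each cell type, over 24 libraries and 10353 candidate genes. The libraries share the LPS contrast. *Cxcl2* was closest to *Stk40* (0.990), *Ccl4* (0.990) and *Errfi1* (0.989), and *Cxcl3* to *Mapkapk2* (0.995), *Vasp* (0.990) and *Gramd1a* (0.989). *Cxcl1* was closest to *Rnf34* (0.977), *Rcn1* (0.972) and *Sh3bgrl2* (0.970). Among the other set, *Cxcl10* was closest to *Gbp5* (0.997), *Marcksl1* (0.995) and *Cd40* (0.992), and *Cxcl11* to *Rnf19b* (0.994), *Abtb2* (0.993) and *Batf2* (0.992). *Cxcl9* had *Rmdn3* (0.987), *Bfar* (0.984) and *Stxbp3* (0.983), and *Cxcl16* had *Sdc4* (0.996), *Stx11* (0.990) and *Cd40* (0.990). Between members, the correlation over the 12 BMDM libraries was 0.991 to 0.997 within *Cxcl1*, *Cxcl2* and *Cxcl3*, 0.991 for *Cxcl9* with *Cxcl11*, and lowest, 0.859, for *Cxcl2* with *Cxcl9*.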

How the data were processed

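RNA-seq of 24 libraries was read from 1 table per cell type, which the authors deposited with read counts per gene and, per the file headers, the FPKM made from them. For aligner, counter and strand setting, nothing was given in the sources used here. Although the labels name the build mm10, gene positions in the tables differ from GRCm38, so positions and promoters came from GENCODE M21 and RefSeq GRCm38.p6. Groups followed the titles, because 12 of 24 genotype tags contradict them. Total counts per library are given with the first results. limma 3.58.1 in R 4.3.3 fitted 4 group means per cell type to log2(FPKM + 0.1), over genes above 0 FPKM in at least 1 of 12 libraries. Folds on this scale understate changes of low genes. Tests were two-sided, with Benjamini-Hochberg adjustment over all genes tested. Alternatives were pseudocounts of 0.01 and 1, an expression filter, TPM and median-ratio scaling, an intensity trend, a replicate block, no fold threshold, leaving out single libraries, and edgeR 4.0.16 and DESeq2 1.42.0 on the deposited counts. Members and gene lists were chosen with earlier results of these data known. The rule named all 7 members, from 5 lists at most the 4 largest called changes per comparison, and the 3 genes most like each member. *Cxcr2* and the values of list genes in comparisons that did not call them were added after being seen. Fits were tested on simulated data. Protein sequences were not used here, and 1 gene of the interferon list is not reported here and was left out of that list's counts and medians.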

Additional observations from a re-analysis of the deposited data

Results flagged for a closer look

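The genotype difference changed with LPS, by the interaction term of limma on log2(FPKM + 0.1), for 7 combinations of gene and cell type. Of these calls, only that of *Cxcl2* in BMDMs held under every alternative. In BMDMs the change was 1.94 for *Cxcl1*, 1.60 for *Cxcl2* and 1.77 for *Cxcl3*, and it was -3.18 for *Cxcl9* and -1.92 for *Cxcl11*. In RAW264.7 it was -1.75 for *Cxcl11* and 0.86 for *Cxcl16*, where the libraries labelled knockout carried more *Olfml3* mRNA than wild type.

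*Cxcl2* with LPS had opposite genotype differences in the 2 cell types, -1.98 in RAW264.7 and 1.94 in BMDMs, with every knockout library on the same side of every wild-type library within each cell type. By label, *Olfml3* mRNA also went opposite ways there, higher in RAW264.7 labelled knockout and lower in knockout BMDMs. The difference between the cell types was not tested.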

How the results depend on the processing

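The counts of members called stayed at 3 between genotypes in RAW264.7 with LPS and at 7 for the LPS response of BMDMs in either genotype, under all alternatives run. The count of 5 between genotypes in BMDMs with LPS became 6 on the adjusted p alone, where *Cxcl10* joined, and the 6 of the LPS response in RAW264.7 became at lowest 4, with the expression filter, which left *Cxcl1*, *Cxcl3* and *Cxcl9* untested. In RAW264.7 with PBS the count of 2 became 1 with a pseudocount of 1 and 4 with edgeR without a filter and with DESeq2, and it was 2 to 4 with single libraries left out. The RAW264.7 interaction count of 2 became 0 with a pseudocount of 0.01, 4 with a pseudocount of 1 and 1 with filtered edgeR, and 0 to 2 with single libraries left out, 0 without wild-type LPS library 2 or 3 or LPS library 1 labelled knockout, and 1 without any of 7 others. In BMDMs with PBS the count of 0 became 2 on the adjusted p alone. The BMDM interaction count of 5 became 2 with a pseudocount of 0.01, 3 with edgeR without a filter and 4 with DESeq2. Of single members' values under alternatives, 1148 kept their direction and their side of the threshold, 31 lost a call, 18 gained one and 6 turned sign.

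A replicate block took the RAW264.7 interaction count from 2 to 0 (adjusted p = 0.0572 for *Cxcl11* and 0.103 for *Cxcl16*) and changed no other count of members. Same-numbered libraries shared only a number, with correlations of their deviations from group means from -0.058 to 0.084.

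Uncalled *Cxcl16* in RAW264.7 with LPS turned to 0.13 with TPM scaling, and the BMDM interaction of *Cxcl10* to -0.0037 with median-ratio scaling. With single libraries left out, *Cxcl9* in RAW264.7 ranged from -0.34 to 0.13 both with LPS and in the interaction, turning without wild-type LPS library 2, and *Cxcl11* in BMDMs with PBS ranged from -0.021 to 0.10, turning without wild-type library 2 or knockout library 3.

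The genotype difference of the index of the 2 sets in RAW264.7 with LPS, 0.81, became -0.15 for *Cxcl2* against *Cxcl10*, -0.14 without *Cxcl3* and *Cxcl11* and -0.12 on summed FPKM, and in BMDMs with LPS, 3.70, it became 2.30 for that pair, 2.38 on summed FPKM and 3.52 with a pseudocount of 1. With PBS the difference was 0.80 with a pseudocount of 0.01 in RAW264.7, and in BMDMs 0.058 with that pseudocount, 0.81 for the pair, 0.51 without the 2 genes and 0.74 on summed FPKM. The LPS shift in wild-type RAW264.7, 0.46, became 1.86 with a pseudocount of 0.01, 2.95 for the pair, 1.97 without the 2 genes and 3.05 summed, and in those labelled knockout, 0.87, it became 1.91, 2.31, 1.58 and 2.40, and 0.64 with a pseudocount of 1. In wild-type BMDMs, -4.01, it became -4.15 with a pseudocount of 1, -4.68 without the 2 genes and -3.85 summed, and in knockout BMDMs, -0.58, it became -0.26 with a pseudocount of 0.01, -0.83 with 1, -2.47 for the pair, -1.38 without the 2 genes and -2.21 summed. With single libraries left out, the genotype difference ranged from 0.30 to 0.60 (PBS) and 0.61 to 0.99 (LPS) in RAW264.7 and from 0.20 to 0.34 and 3.65 to 3.78 in BMDMs, and the LPS shift from 0.28 to 0.66 (wild type) and 0.75 to 0.96 (labelled knockout) in RAW264.7 and from -4.09 to -3.94 and -0.62 to -0.53 in BMDMs.

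Median-ratio scaling moved the median of all genes from -0.30 to 0 for LPS in wild-type BMDMs and from -0.28 to 0 in knockout. It changed the split of genes called higher and lower from 2141 and 8758 to 4056 and 4405 there, from 2162 and 8326 to 3755 and 4272 in knockout, from 1552 and 3347 to 2125 and 2149 in wild-type RAW264.7, and from 1993 and 3906 to 2847 and 2662 in those labelled knockout. Between genotypes it changed 872 and 413 to 539 and 703 in BMDMs with LPS, 243 and 247 to 166 and 244 with PBS, and 514 and 275 to 334 and 380 in the interaction. TPM scaling changed 1280 and 1007 to 1897 and 718 in RAW264.7 with PBS and 2603 and 2033 to 3755 and 1201 with LPS. The cause was not tested. At this depth *Cxcl1* and *Cxcl9* had at most 6 counts in RAW264.7.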
